A study of Mus musculus with 2 samples.

Results

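The genes of miR-219 and miR-338 were examined in microRNA sequencing of the left cerebral cortex of male mice on postnatal day 10. They were chosen by symbol in GENCODE M21 and number 4 of 2202 microRNA (miRNA) genes in the files: Mir219a-1, Mir219a-2, Mir219b and Mir338. All 4 symbols were found in both libraries. The animals were B6CASTF1/J, an F1 hybrid of the B6 and CAST strains, with no treatment or engineered allele named in the labels. There was 1 group of 2 biological replicates, which the labels number as separate males under a single donor entry for the strain. With 1 group, no condition was compared, and the data give levels, strands and the spread between the 2 libraries.

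A miRNA gene is transcribed as a longer RNA from which a hairpin is cut, and the hairpin yields 1 or both of its arms, 5p and 3p, as mature miRNAs. The seed, bases 2 to 8 of the mature strand, pairs with target messages and directs their repression. miR-219 and miR-338 rise as oligodendrocyte precursors differentiate into the cells that make myelin, and are known to repress regulators that hold the precursors in an immature state, among them Sox6, Hes5 and Pdgfra. Oligodendrocytes arise before and after birth, and the cortex of the young mouse is at an early stage of myelination.

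The mature sequences show which of the 4 genes can make the same miRNA. They were copied from RefSeq (GRCm38.p6), which matched all 4 genes, and are given from 5′ to 3′ with the seed in capitals. The partner of Mir338 on the other strand is included because the strand counts turn on it.

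miR-219a-5p: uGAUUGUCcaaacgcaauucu

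miR-219a-1-3p: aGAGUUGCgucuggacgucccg

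miR-219b-5p: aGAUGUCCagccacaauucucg

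miR-219b-3p: aGAAUUGCguuuggacaaucagu

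miR-338-3p: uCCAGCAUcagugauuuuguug

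miR-338-5p: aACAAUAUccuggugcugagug

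miR-3065-5p: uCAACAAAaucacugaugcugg

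No 2 of these 7 mature miRNAs had the same seed, and no other of the 1679 mature names in the RefSeq table had the seed of any of them. miR-219a-5p is the product shared by Mir219a-1 and Mir219a-2. It is also the only mature miRNA that the RefSeq table lists for Mir219a-2. Any product of the other arm of Mir219a-2 is therefore not among the 7, and its seed was not compared. The reverse complement of miR-219a-5p lies within miR-219b-3p over all 21 bases, and miR-338-3p is complementary to miR-3065-5p over 21 of 22 bases. The names miR-219a and miR-219b therefore cover different seeds: those of miR-219b are read from the opposite strand of the same bases.

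Mir219a-2 lies on chromosome 2 at chr2:29845631-29845727 (mm10, minus strand), outside any other annotated gene except Mir219b and 629 bases from the protein-coding gene Urm1. Mir219b lies on the plus strand inside it, at chr2:29845647-29845711, and all 65 bases of Mir219b are covered by Mir219a-2. Mir219a-1 lies on chromosome 17 at chr17:34024983-34025092 (minus strand), where it overlaps an exon of the long noncoding RNA Gm26940 and stands 303 bases from Ring1. On the plus strand it overlaps Mir219c over 60 bases. Mir338 lies on chromosome 11 at chr11:120014765-120014862 (minus strand), in an intron of Aatk, which encodes an apoptosis-associated tyrosine kinase and is transcribed from the same strand. It overlaps Mir3065 on the plus strand over 87 bases. Each of the 4 genes was thus overlapped by a miRNA gene on the other strand.

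**Figure D1:**
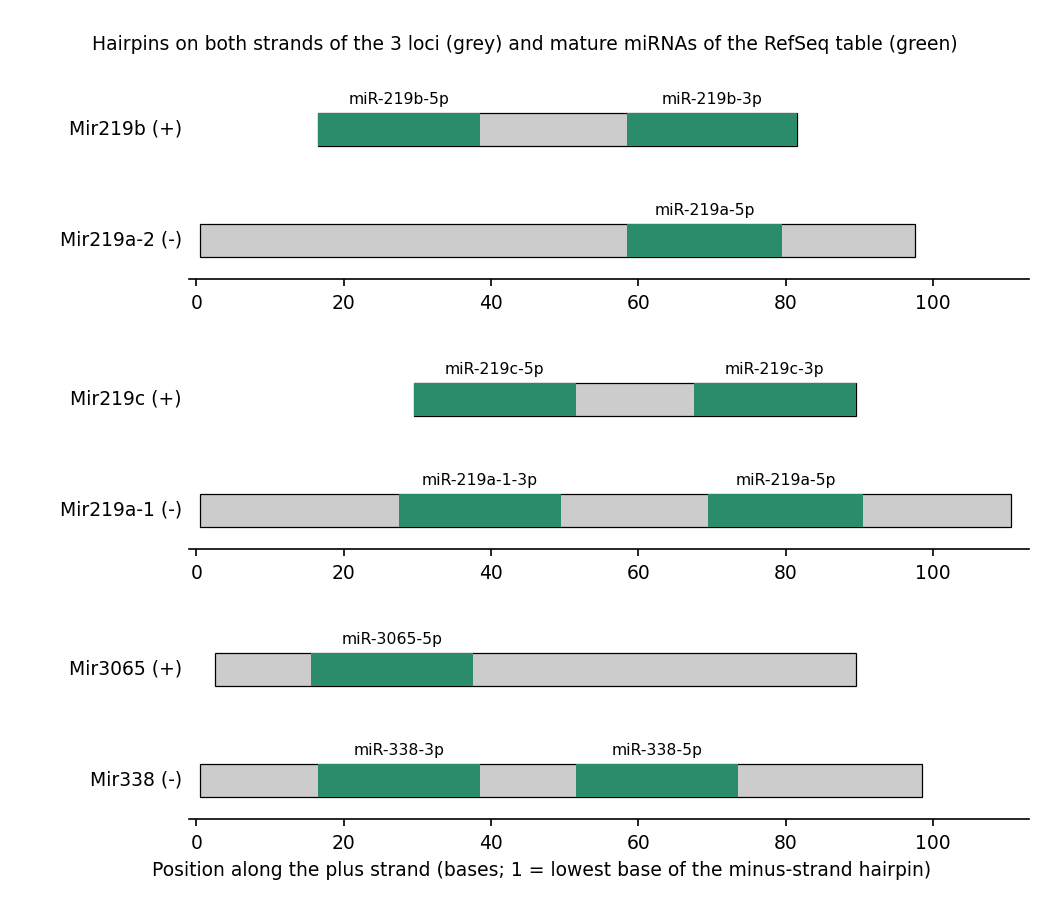
Positions of the hairpins (grey) and of the mature miRNAs in the RefSeq table (green) at the 3 loci, in bases along the plus strand from the lowest base of the minus-strand hairpin. In each locus a plus-strand hairpin of 60 to 87 bases lies against a minus-strand hairpin of 97 to 110 bases.

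The hairpins of Mir219a-1 and Mir219a-2 show how far the 2 copies are alike, which bears on how their reads could be counted. The capitals mark the longest stretch that the 2 hairpins share.

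Mir219a-1: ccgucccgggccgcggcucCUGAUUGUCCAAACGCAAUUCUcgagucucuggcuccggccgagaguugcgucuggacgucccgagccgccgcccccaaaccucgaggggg

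Mir219a-2: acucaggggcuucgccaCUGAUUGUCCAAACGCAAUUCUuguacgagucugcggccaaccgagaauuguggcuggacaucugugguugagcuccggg

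The shared stretch is 22 bases long and holds the whole of miR-219a-5p. A read within it matches both loci, and the files assign multimapped reads (those with more than 1 place in the genome) to no gene. Multimapped reads were 51.2% of mapped reads in replicate 1 and 49.2% in replicate 2, and how many came from miR-219a-5p was not analysed here. Of windows of 22 bases, 1 of 76 in Mir219a-2, 1 of 89 in Mir219a-1 and, on the other strand, 1 of 44 in Mir219b occur in a hairpin at another locus. No other window of Mir219a-1 or Mir219a-2 does, so the 3p side of each is not found in a listed hairpin at another locus. For Mir338, 0 of 77 windows do, and the genome outside the listed hairpins was not searched. The counts of Mir219a-1, Mir219a-2 and Mir219b are accordingly lower limits for their hairpins. A read of miR-219a-5p as listed lies within the shared stretch and would be counted for neither Mir219a-1 nor Mir219a-2. The levels of these 2 genes are therefore not levels of miR-219a-5p. The reads that were counted are not split by arm at any of the 4 genes.

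Replicate 1 held 2677910 reads on the strand of a miRNA gene and replicate 2 held 1750076. Levels are given in CPM, the sense reads of a gene scaled to a common library total, with no correction for length because each read is taken to span a mature miRNA. A count of 3 reads equals 1.12 CPM in replicate 1 and 1.71 CPM in replicate 2, and is used as the limit that a count of 0 allows. Intervals cover counting error only, since reads copied by PCR are not independent molecules. Lists were also made of miRNAs of other cells that the tissue could hold. In both libraries, 2 CPM was reached by 6 of 9 neuronal, 4 of 4 microglial and leukocyte, and 3 of 3 endothelial and mural genes. It was also reached by 3 of 3 erythroid genes and 3 of 7 choroid plexus and ependyma genes. Over all 2202 genes the share was 20.1%, but the lists were chosen with earlier results of these data known.

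Of the 4 genes, 3 were detected, that is at 2 CPM or more in both libraries, against 20.1% of all 2202 genes (442 genes). The number of genes is too small to read the share against that background. By reads placed at a single locus, Mir338 had the highest level, followed by Mir219a-2, then Mir219a-1, and Mir219b had no read. Because the tissue was sequenced in bulk, fewer cells of a type and less RNA per cell cannot be told apart.

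Mir338, whose miR-338-3p acts with miR-219 in oligodendrocyte differentiation, had 1275 sense reads in replicate 1 and 1341 in replicate 2. Its level was 476 CPM in replicate 1 (95% Poisson interval 450.3 to 503) and 766 CPM in replicate 2 (726 to 808), a mean of 621 ± 205 CPM (SD, n = 2). It ranked 140 of 2202 genes in replicate 1 and 122 in replicate 2. Replicate 2 was the higher library, and the 2 counting intervals did not overlap.

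Mir219a-2 had 902 sense reads in replicate 1 and 1119 in replicate 2. Its level was 337 CPM in replicate 1 (315 to 360 CPM) and 639 CPM in replicate 2 (602 to 678 CPM), a mean of 488 ± 214 CPM (SD, n = 2). It ranked 159 in replicate 1 and 133 in replicate 2. As for Mir338, replicate 2 was the higher library and the counting intervals were apart.

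Mir219a-1, the copy on chromosome 17, had 56 and 30 sense reads. Its level was 20.9 CPM in replicate 1 (15.8 to 27.2 CPM) and 17.1 CPM in replicate 2 (11.6 to 24.5 CPM), a mean of 19.0 ± 2.67 CPM (SD, n = 2), and the intervals overlapped. It ranked 294 in replicate 1 and 303 in replicate 2. The order of the libraries was the reverse of that at the other 2 detected genes.

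Mir219b, the hairpin opposite Mir219a-2, had 0 sense reads in both libraries, which allows up to 1.12 CPM in replicate 1 and 1.71 CPM in replicate 2 of reads placed at this locus alone. Reads of Mir219b within the 22 bases that the loci share would not be counted, so this is no limit on the hairpin as a whole. Mir219b was not detectable in uniquely placed reads at this depth.

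**Figure D2:**
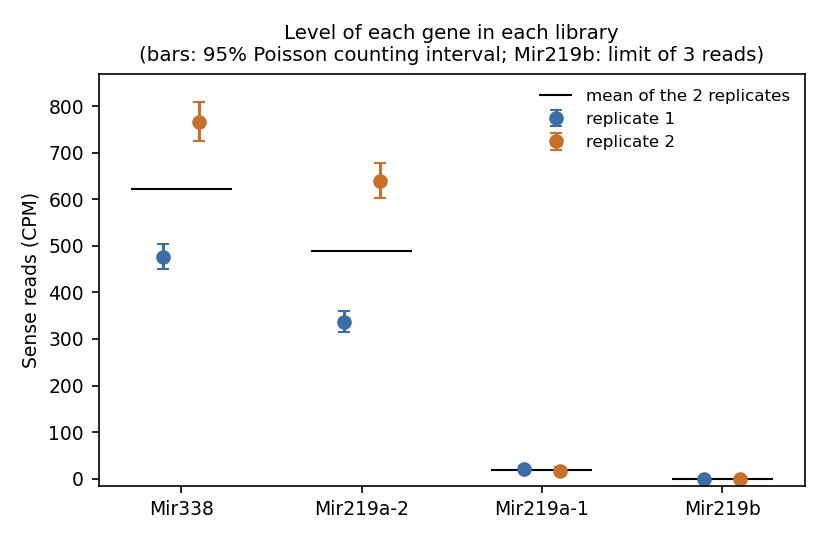
Level of each of the 4 genes in CPM (vertical axis) in replicate 1 (blue) and replicate 2 (orange), with 95% Poisson counting intervals as bars (for Mir219b, the limit of 3 reads) and the mean of the 2 replicates as a line. Mir338 and Mir219a-2 lie between 337 and 766 CPM, Mir219a-1 near 20 CPM and Mir219b at 0.

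The means of Mir338 and Mir219a-2 differed by less than the SD of either. Within each library, however, Mir338 had more uniquely placed reads: 1.41 times those of Mir219a-2 in replicate 1 (95% exact binomial interval 1.30 to 1.54) and 1.20 times in replicate 2 (1.11 to 1.30), a mean ratio of 1.31 ± 0.152 (SD, n = 2). Reads of miR-219a-5p within the shared stretch are missing from Mir219a-2. No window of 22 bases in Mir338 was found in a listed hairpin at another locus, but matches elsewhere in the genome were not searched. The order of the 2 hairpins counting all reads was therefore not measured. Mir219a-2 held 16.1 times the reads of Mir219a-1 in replicate 1 (12.3 to 21.5) and 37.3 times in replicate 2 (26.0 to 55.5). These 2 genes are copies that share miR-219a-5p, and the ratio holds for the reads that could be placed at 1 of them. The 4 genes together took 0.0834% of the sense reads of replicate 1 (0.0800 to 0.0869% as a 95% Wilson interval). The share was 0.142% in replicate 2, with an interval of 0.137 to 0.148%, and averaged 0.113% ± 0.0416 (SD, n = 2). The miR-219 genes gave 958 of 2233 of these reads in replicate 1 and 1149 of 2490 in replicate 2.

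The strand columns separated the hairpins of each locus. For Mir219a-2, all 902 and 1119 reads of the stranded columns were sense, a share of 100% with a lower 95% Wilson bound of 99.6% in replicate 1 and 99.7% in replicate 2. Mir219b gave the mirror image, with 901 and 1119 antisense reads and no sense read. The 1 read by which these differ in replicate 1 is also the only read of Mir219a-2 in the unstranded column.

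Mir338 had 8 antisense reads in replicate 1 and 3 in replicate 2, so 99.4% (98.8 to 99.7%) and 99.8% (99.3 to 99.9%) of its reads were sense. The same 8 and 3 reads were the sense reads of Mir3065, which amount to 2.99 and 1.71 CPM. Mir338 therefore had 159 times the reads of Mir3065 in replicate 1 (95% exact binomial interval 80.6 to 369.96) and 447 times in replicate 2 (153 to 2170). Mir3065 missed the minimum of 2 CPM for a detected gene in replicate 2.

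Mir219a-1 had 1 antisense read in replicate 1 and 0 in replicate 2, a sense share of 98.2% (90.7 to 99.7%) and 100% (88.6 to 100%). Its partner Mir219c had 1 and 0 sense reads. At the depth of Mir219a-1, an antisense share of up to 9.29% in replicate 1 and 11.4% in replicate 2 lies within the interval. Among uniquely placed reads, the chromosome 17 locus is thus less closely bounded than the other 2. The strand bounds of Mir219a-1 and Mir219a-2 do not cover reads within the stretch that they share.

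Counted without regard to strand, the 4 genes all but vanished. The unstranded column gave 0 reads to Mir338, Mir219a-1 and Mir219b in both libraries, and 1 and 0 reads to Mir219a-2. The 3 pairs of hairpins held 2242 sense reads in replicate 1 and 2493 in replicate 2, against 1 and 0 unstranded reads. The difference of 2241 and 2493 reads equals 1.24% and 2.29% of the reads that the unstranded column lists as ambiguous. The loss was not particular to these genes: the unstranded column held under 10% of the sense reads at 100% of detected genes overlapped by a miRNA gene on the other strand (28 of 28, these 3 included) and at 0% of the other 414 detected genes.

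**Figure D3:**
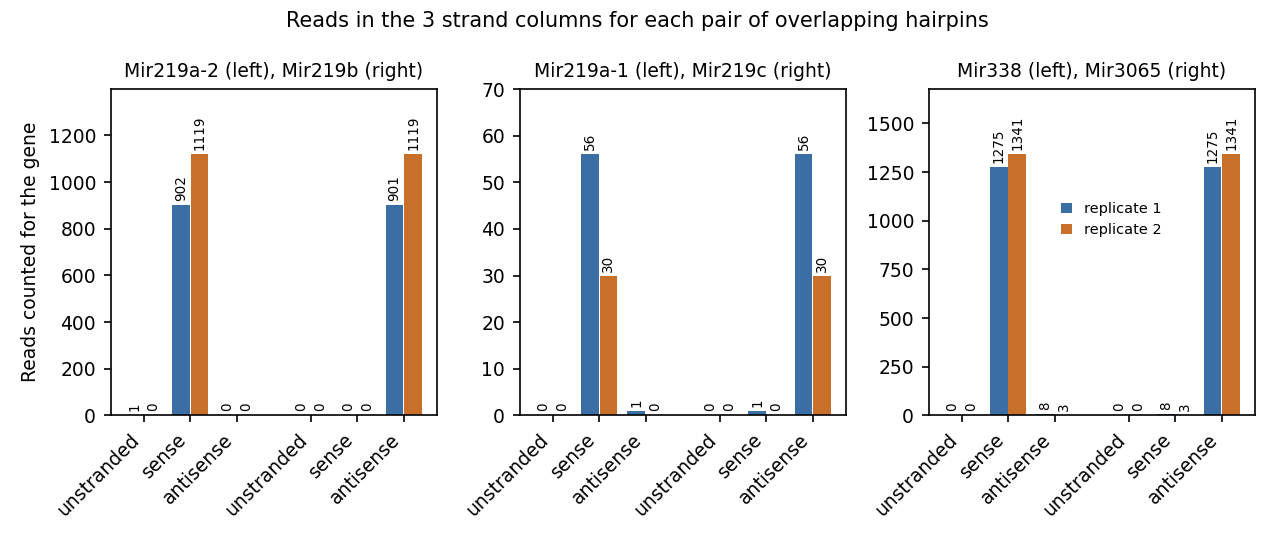
Reads per gene (vertical axis, printed above each bar) in the unstranded, sense and antisense columns for the 3 pairs of overlapping hairpins, in replicate 1 (blue) and replicate 2 (orange). The vertical scale differs between panels. In each pair the sense reads of the minus-strand hairpin return as antisense reads of its partner, and the unstranded bars are at 0 or 1.

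The lean to 1 strand was also common to such loci. The files list 32 pairs of miRNA genes that overlap on opposite strands, of which 27 had 20 or more sense reads over both libraries. The 27 include the 3 loci described here. In 24 of the 27, over 99% of the pair's sense reads lay on 1 hairpin, and the median was 100%. The share was 100% for Mir219a-2, 99.6% for Mir338 and 98.9% for Mir219a-1, where 86 reads lay on it and 1 on the partner. The last of these is below 99% and the lowest share over the 27 pairs was 60.8%.

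Between the 2 libraries, Mir338 and Mir219a-2 were higher in replicate 2. The log2 ratio of replicate 2 to replicate 1 was 0.92 for Mir219a-2 (95% counting interval 0.80 to 1.05), a 1.90-fold difference. It was 0.69 for Mir338 (0.57 to 0.80), a 1.61-fold difference, and -0.29 for Mir219a-1 (-0.98 to 0.38). With 1 library per biological replicate, these differences have no replicate check and carry no p.

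None of the 3 detected genes (0 of 3) differed 2-fold or more, against 14.9% of the 442 detected genes. At 1.5-fold or more, Mir219a-2 and Mir338 (2 of 3) were past the line, both higher in replicate 2, against 31.7% of detected genes either way and 15.2% higher in replicate 2. The median log2 ratio was 0.69 over the 3 genes and -0.07 over all detected genes. Of the 442, 31 had a higher ratio than Mir219a-2, 53 a higher ratio than Mir338 and 303 a higher ratio than Mir219a-1. Scaled to a total without the 10 most abundant genes, Mir219a-2 passed 2-fold, at a log2 ratio of 1.01.

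**Figure D4:**
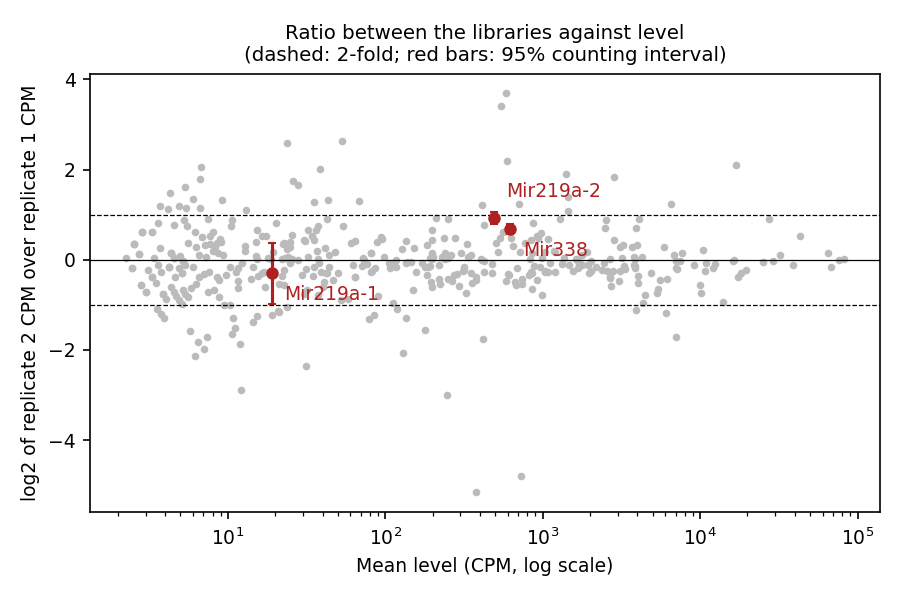
Log2 of the CPM in replicate 2 over that in replicate 1 (vertical axis) against the mean CPM (horizontal axis, log scale) for 442 detected miRNA genes (grey), with Mir338, Mir219a-2 and Mir219a-1 in red with 95% counting intervals. Mir219a-2 (0.92) and Mir338 (0.69) lie below the dashed line of a 2-fold difference and Mir219a-1 (-0.29) lies near 0.

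Markers of other cells also differed between the 2 libraries. Of all detected genes, 7.01% were 2-fold or more higher in replicate 2 and 7.92% were lower. The summed level of the 7 choroid plexus and ependyma genes was 1121 CPM in replicate 1 and 2769 CPM in replicate 2, with 2 of its 3 detected genes 2-fold or more higher in replicate 2, and 1 of the 7 at 0 in each library. That of the 9 neuronal genes was 37049 and 21628 CPM, with 1 of the 9 at 0 in replicate 1. All 6 detected neuronal genes were lower in replicate 2. Their median log2 ratio was -0.69, beside -0.07 over all detected genes. Of the 6, 1 was 2-fold or more lower, a count near the background of 7.92%. The neuronal genes not detected were Mir124a-1, Mir124a-2 and Mir124a-3. Reads that match more than 1 of these would be assigned to no gene, and how many did was not analysed. The 3 erythroid genes summed to 814 and 56.6 CPM, with 2 of 3 lower and none at 0. The microglial and leukocyte genes (1626 and 1598 CPM) and the endothelial and mural genes (13639 and 15214 CPM) had no gene past 2-fold and none at 0. Their part in the ratios of Mir338 and Mir219a-2 was not tested.

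Other miRNA genes linked to the oligodendrocyte lineage were mostly detected. Most of them lay within 2-fold between the libraries, as did most of all detected genes. Of 17 such genes listed, 15 were matched by symbol and 2 by a RefSeq synonym. Of the 17, 14 were detected, against 20.1% of all 2202 genes. The list was chosen with earlier results of these data known, so this share is not read against that background. Of the 14, 0 were 2-fold or more higher in replicate 2, against 7.01% of all detected genes, and 1, Mir9-3, was lower, against 7.92%. Their median log2 ratio was -0.21, beside -0.07 over all 442 detected genes. The 4 with the highest mean level were Mir125a at 12039 ± 1070 CPM, Mir23a at 5338 ± 1870 CPM, Mir17 at 3259 ± 504 CPM and Mir138-1 at 3193 ± 58.96 CPM (SD, n = 2). Their log2 ratios were -0.18 for Mir125a, -0.73 for Mir23a, 0.32 for Mir17, a member of the cluster linked to precursor proliferation, and 0.04 for Mir138-1. Each stood above Mir338 in CPM in both libraries. These levels and ratios count uniquely placed reads only. Reads that match more than 1 of the listed Mir7, Mir9 or Mir138 genes would be assigned to no gene, and how many did was not analysed.

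The genes nearest in level were named by Euclidean distance in log2 CPM over the 2 libraries, which is a description of level and says nothing of shared function. For Mir338 they were Mir15a (distance 0.16), Mir125b-2 (0.21) and Mir669c (0.30). Mir15a had 529.5 and 735 CPM in replicates 1 and 2, where Mir338 had 476 and 766 CPM. For Mir219a-2 they were Mir34a (0.29), Mir125b-2 (0.39) and Mir101b (0.41), of which Mir34a had 314 and 531 CPM. For Mir219a-1 they were Mir92-2 (0.21), Mir20b (0.22) and Mir6900 (0.24), with Mir92-2 at 18.7 and 18.9 CPM. Both Mir338 and Mir219a-2 had Mir125b-2 among their nearest 3 genes, at 439 and 677 CPM.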

How the data were processed

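Total RNA from left cerebral cortex was sequenced as small RNA in 2 libraries, 1 per biological replicate, with a size range below 30 per the labels. Each deposited file holds unnormalised counts of reads for each miRNA hairpin, made on mm10 with GENCODE M21 per the file descriptions that accompany the samples. Which aligner, counter and trimming the authors used is not given in the sources used here. The 3 columns of counts are unstranded, sense and antisense, as their values show. The 4 rows that name no gene stayed out of library totals: unmapped reads were 25.5% and 42.4% of all reads in replicates 1 and 2, multimapped reads 38.2% and 28.3%, and reads outside listed genes 6.93% and 5.74%.

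Sense counts were divided by their sum over 2202 genes. Genes at 2 CPM in both libraries (5.36 and 3.50 reads) were called detected. Ratios between libraries have exact binomial intervals, and a 2-fold ratio was called. No p-value was computed, since there is 1 group. Symbols and positions came from GENCODE M21, which matched 2202 identifiers. Mir7a-1 and Mir7a-2 of the lineage list are Mir7-1 and Mir7-2 there, by RefSeq synonym. Hairpins were compared by windows of 22 bases over 2202 GENCODE hairpins, leaving out those that overlap the same locus. CAST alleles were not considered. TMM totals came from edgeR 4.0.16 in R 4.3.3, and the rest from Python 3.11.15 with numpy 2.4.6, pandas 2.3.3, scipy 1.17.1 and matplotlib 3.10.9. The ratio step was tested on simulated Poisson counts. These hold no PCR copies and no spread between replicates, so the test checks the calculation only. Named were the 4 genes, miRNA genes overlapping them, the 3 nearest detected genes in level to each, and the 4 highest genes of the lineage list, and Mir9-3 was added after its value was seen. The members and lists were chosen with earlier results of these data known.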

Additional observations from a re-analysis of the deposited data

How the results depend on the processing

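The choice of strand column decided whether the genes were seen. With the unstranded counts, 0 of the 4 genes were detected, the levels were 0 CPM for Mir338, 0 for Mir219a-1 and 0.2002 for Mir219a-2, and the combined share was 2.00236e-05%. Scaled to all mapped reads, the levels were 251 for Mir338, 197 for Mir219a-2 and 7.64 for Mir219a-1, and the share 0.0456%. With the 10 most abundant genes left out of the total they were 1216, 958 and 36.9, the share 0.221%, and 1 gene (Mir219a-2) passed 2-fold. At 1.5-fold, 2 genes passed. The other 22 of 37 alternative values were called the same. For levels and the share this means within the SD of the replicates, and for log2 ratios within the counting interval. Counts of genes called the same did not change. Among the 22 were all 9 log2 ratios, the 3 detected genes at a 5 or 10 CPM minimum or at any read, and the levels with TMM totals. Mir219b was also among them, but no scaling can move its count of 0.

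Without replicate 1 or replicate 2, the level ranged from 476 to 766 CPM for Mir338, 337 to 639 for Mir219a-2, 17.1 to 20.9 for Mir219a-1 and stayed at 0 for Mir219b. The combined share ranged from 0.0834% to 0.142% and the ratio of Mir338 to Mir219a-2 from 1.20 to 1.41. The unstranded counts give no ratio between libraries or genes. No paired analysis was possible because there is 1 group. With 30 to 56 reads, Mir219a-1 limits its strand share and its ratio most.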
